A study of Sus scrofa with 30 samples.

Results

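Early lactation was compared with mid-gestation in the mammary gland of the sow, with every transcript of the deposited table included. Of the 30 samples of the series, 6 entered the comparison: samples 3, 4 and 6 of early lactation (EL) and samples 1, 3 and 6 of mid-gestation (MG). Each sample came from the parenchyma under a teat of 1 sow that had farrowed before, from a half-sib cross of Danish Landrace and Yorkshire pigs, and was sequenced from total RNA. MG was day 70 of gestation and EL day 2 postpartum, and the other stages of the series were day 110 of gestation (LG), day 10 postpartum (PL) and 2 days after weaning (W2). Stage and physiological state change together here, so pregnancy, farrowing, suckling and time cannot be told apart. Samples were grouped by their titles, because the stage text of the records names the samples titled EL as mid-gestation and those titled MG as early lactation. The sign of every difference below therefore rests on the titles.

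The other 6 samples titled EL or MG were left out, since they nearly repeat the mean of the ones kept. Among transcripts that averaged 10 or more in the stage, the left-out samples of a stage differed from each other by a median of 1.65 to 1.83% per pair in EL and 1.65 to 1.80% in MG. The counted samples differed by 22.7 to 33.3% in EL and 20.5 to 23.6% in MG. The mean of the left-out samples differed from that of the counted ones by a median of 0.708% in EL and 0.698% in MG. Values above 0 were written with more than 6 decimals in 99.4 to 99.5% of cases in the left-out EL samples, and in 0% of cases in the counted ones. No source states that samples of a stage came from separate litters or days, so p-values measure only the spread between sows within a stage. That spread was pooled over the counted samples of all stages of the series, 3 sows per stage, and not taken from EL and MG alone.

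At mid-gestation the sow's mammary gland is still building its lobules of secretory cells inside fat and connective tissue. Around farrowing, falling progesterone and high prolactin turn on milk secretion, with casein, whey protein, lactose and fat made by the luminal cells and moved to the duct by the contraction of myoepithelial cells. Prolactin acts through its receptor and the transcription factors STAT5A and STAT5B, and the first secretion, colostrum, carries antibodies and defence proteins to the piglet. In a bulk tissue sample, fewer cells of a type and less RNA per cell cannot be told apart.

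The table lists 61773 transcripts, of which 32688 belong to 14913 reference genes, 38 carry reference-like names that had no match, and 29047 were assembled by the authors in 11061 loci named MSTRG. The values are called FPKM by the authors (fragments per length of transcript and per total fragments), and they add up to 997738 to 998475 in each of the 6 samples, so each value is a share of that total. The depth behind a single value is unknown in this table. The 20 highest transcripts held 28.0% ± 2.18 (SD, n = 3) of the total in MG and 37.7% ± 4.17 in EL. The median difference of all genes and loci between EL and MG was -0.37 on the log2 scale. After division by the median ratio of well-measured transcripts, called median ratio scaling below, it was -0.08. A gene that held its level relative to the median gene would thus appear lower in EL by the first of these values.

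Differentially expressed transcripts (DETs) were defined by an adjusted p below 0.05 in limma (Benjamini-Hochberg over all transcripts) and an absolute log2 difference of at least 2, on log2(value + 0.5). By this rule 24 transcripts, 0.0389% of those tested, differed between the stages. Of these, 8 (0.013%) were higher in EL and 16 (0.0259%) lower. Reference transcripts made up 4 of the 8 and 12 of the 16. In all 24 the EL and MG samples did not overlap, which held for 2.29% of all transcripts with EL above and 13.2% with EL below. An unadjusted p below 0.05 was reached by 4763 transcripts, 1033 of them higher in EL and 3730 lower. The share of called transcripts that were lower in EL was 66.7%, and 52.9% after median ratio scaling. Leaving out 1 sample raised the number of DETs, to 84 without MG sample 1, 54 without MG sample 3, 58 without MG sample 6 or without EL sample 3, and 53 without EL sample 4 or without EL sample 6. These sets held 14 to 22 of the 24.

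**Figure D1:**
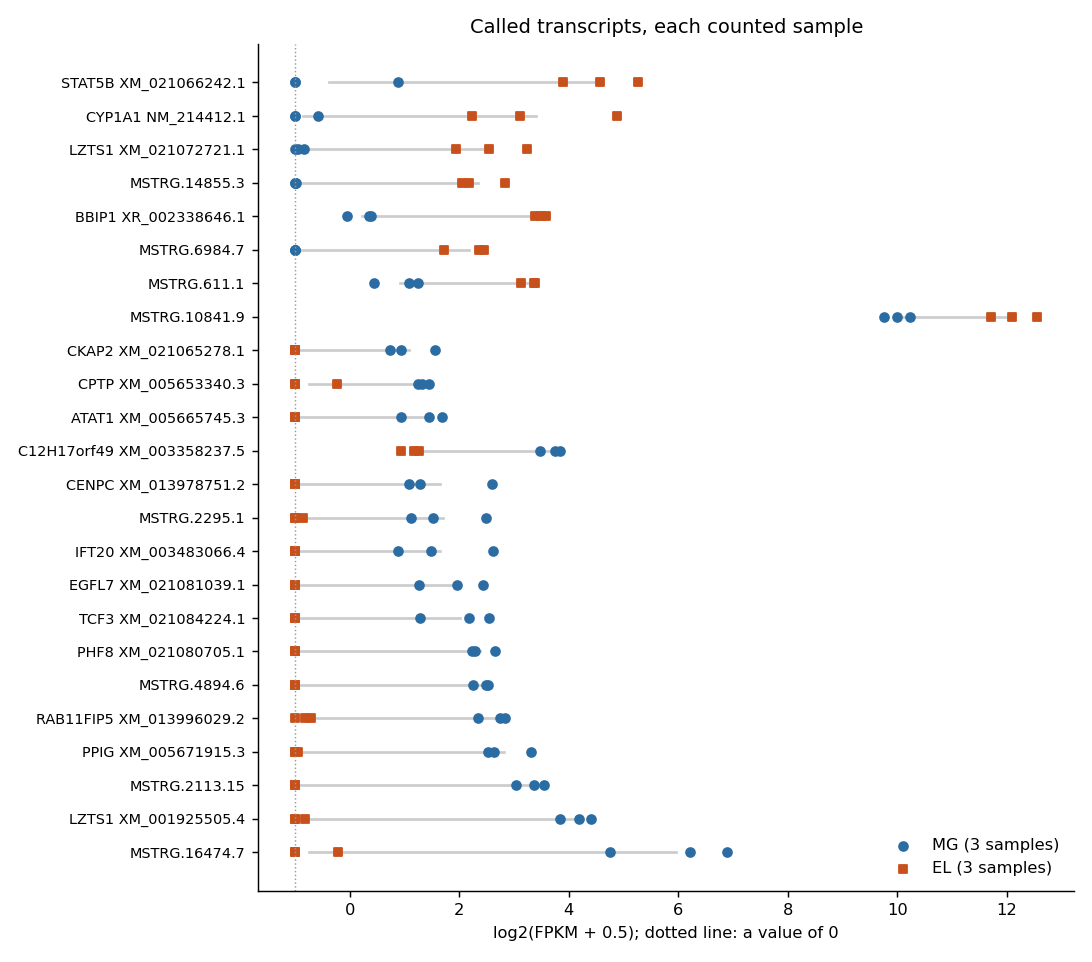
Values of the 24 called transcripts on the scale log2(FPKM + 0.5), with MG samples as circles and EL samples as squares, 3 each, and a grey line between the group means. In 15 of the 16 transcripts lower in EL every EL sample lies below an FPKM of 0.5, and MSTRG.10841.9 stands apart at values above 860 in all samples.

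The transcript with the lowest adjusted p belonged to LZTS1, a leucine zipper protein that restrains cell growth, on chromosome 14 (4344496 to 4404208, Sscrofa11.1). Its transcript XM_001925505.4 stood at 13.8, 20.7 and 17.8 FPKM in MG and at 0, 0 and 0.0657 in EL, a log2 difference of -5.08 ± 0.27 (SE, n = 3 per stage, limma adjusted p = 7.09e-06). The other transcript of the gene, XM_021072721.1, stood at 0.0591, 0 and 0.0174 in MG and at 8.87, 3.34 and 5.34 in EL. That is a log2 difference of 3.50 ± 0.39 (limma adjusted p = 0.00637). The first transcript held 99.9% of the gene's reference total in MG, and the second 99.6% in EL, so each stage listed nearly all of the gene under a different transcript. The sum of both differed by -1.57 on the log2 scale and did not pass (limma adjusted p = 0.128). XM_001925505.4 averaged 14.8 FPKM in LG and 20.2 in W2 and was listed at 0 in every PL sample, so it was listed again after weaning. It alone of the 24 stayed called in all 17 alternatives tried.

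On log2(value + 0.5), the largest fitted rise was that of a transcript of STAT5B, one of the factors that carry the prolactin signal to milk genes, on chromosome 12 (20498103 to 20574365). XM_021066242.1 was listed at 1.33, 0 and 0 FPKM in MG and at 37.8, 14.4 and 23.1 in EL, with a log2 difference of 4.95 ± 0.52 (limma adjusted p = 0.0035). It held 0.361% of the gene's reference total in MG and 22.9% in EL. The 5 STAT5B transcripts together did not pass the test. Their sum was 137, 147 and 84.6 in MG and 155, 61.9 and 112 in EL (log2 difference -0.22, limma adjusted p = 0.76). The highest transcript, XM_021066241.1, stood at 26.2, 40.5 and 71.2 in MG and 37.9, 43.5 and 29.6 in EL, with overlapping groups. XM_021066242.1 was already at 23.5 to 36.7 in LG and stayed at 8.09 to 15.6 in PL and 19.0 to 38.4 in W2, so MG was the one stage of the 5 in which it was near 0. How StringTie divides reads between transcripts of a gene that share exons was not tested here, for STAT5B or for LZTS1.

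**Figure D2:**
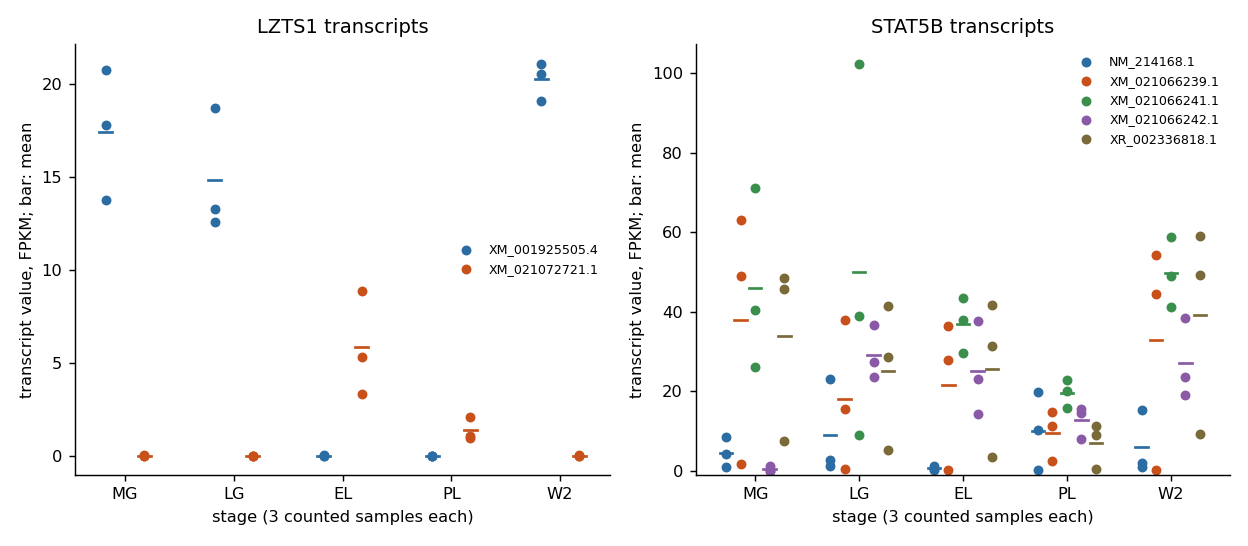
Values in FPKM of both LZTS1 transcripts and of the 5 STAT5B transcripts in the 15 counted samples, 3 per stage, with bars at the means. LZTS1 is listed under XM_001925505.4 in MG, LG and W2 and under XM_021072721.1 in EL and PL, and STAT5B XM_021066242.1 is near 0 in MG alone.

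Of the other transcripts higher in EL, CYP1A1, a cytochrome P450 that oxidises aromatic compounds and is induced through the aryl hydrocarbon receptor, was also high in EL at the level of the gene. NM_214412.1 (chromosome 7, 58802887 to 58809155) was listed at 0, 0.168 and 0 FPKM in MG and at 29.0, 8.09 and 4.17 in EL, a log2 difference of 4.26 ± 0.63 (limma adjusted p = 0.0401). It was at most 1.60 in every counted sample of LG, PL and W2, so EL was its high stage. The sum of both CYP1A1 transcripts differed by 4.10 on the log2 scale (limma adjusted p = 0.0528). BBIP1, a small subunit of the BBSome that moves proteins into cilia, had its non-coding transcript XR_002338646.1 at 0.805, 0.46 and 0.771 in MG and 11.6, 10.8 and 9.91 in EL. This was a log2 difference of 3.27 ± 0.41 (limma adjusted p = 0.019), while its main coding transcript XM_013983729.2 stood at 12.6, 5.65 and 13.5 in MG and at 7.32 to 9.42 in EL. The BBIP1 transcript thus took 4.62% of the gene's total in MG and 54.3% in EL.

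The 4 assembled transcripts higher in EL were of very different levels. MSTRG.10841.9 was by far the most abundant of the 24, at 1204, 860 and 1013 FPKM in MG and 3360, 6023 and 4383 in EL, a log2 difference of 2.13 ± 0.30 (limma adjusted p = 0.037). It averaged 3011 in LG, 3720 in PL and 702 in W2, so it was lower in MG and W2 than in the stages between them, and it held 4.71% of its locus in MG and 12.1% in EL. MSTRG.611.1, the single transcript of its locus, rose from 1.88, 0.849 and 1.61 to 8.22, 9.87 and 9.77. MSTRG.14855.3 was at most 0.00662 in MG and 3.62 to 6.60 in EL, and MSTRG.6984.7 was listed at 0 in MG and at 2.80 to 4.98 in EL. These last 2 stayed below 0.5 in every counted sample outside EL. The table gives neither a gene name nor a position for the assembled loci.

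The 12 reference transcripts lower in EL were of low level in MG and near 0 in EL. PPIG, a cyclophilin of the nucleus that takes part in RNA splicing, had the lowest adjusted p of these after LZTS1. Its transcript XM_005671915.3 was at 9.40, 5.23 and 5.71 FPKM in MG and at 0, 0.0196 and 0 in EL (log2 difference -3.80 ± 0.37, limma adjusted p = 0.00199). C12H17orf49 was the exception in level: XM_003358237.5 stood at 10.6, 13.8 and 12.9 in MG and was still present in EL at 1.89, 1.41 and 1.74, a fall of 2.57 on the log2 scale (limma adjusted p = 0.0412). RAB11FIP5, an effector of vesicle recycling, had XM_013996029.2 at 4.56, 6.63 and 6.15 in MG and at most 0.112 in EL.

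The remaining reference transcripts lower in EL fall into a few roles. Gene regulators were PHF8, a histone demethylase, with XM_021080705.1 at 4.17 to 5.77 in MG and listed at 0 in EL, and TCF3, an E-protein transcription factor, with XM_021084224.1 at 1.93 to 5.35 in MG and 0 in EL. Proteins of the spindle, the centromere and the microtubules were CKAP2 at 1.16 to 2.43, CENPC at 1.61 to 5.53 and the tubulin acetyltransferase ATAT1 at 1.42 to 2.69 in MG, each with a transcript listed at 0 in all EL samples. The other 3 were EGFL7, secreted by endothelium, at 1.91 to 4.91, IFT20, part of the transport system of cilia, at 1.34 to 5.62, and CPTP, which carries ceramide-1-phosphate between membranes, at 1.88 to 2.21. The first 2 were listed at 0 in EL and CPTP reached 0.351 in 1 sample. For transcripts at 0 in a whole stage the fitted log2 difference depends on the value added before taking logs, so no fold is given. Among the assembled transcripts lower in EL, MSTRG.16474.7 was the highest, at 74.0, 117 and 26.4 in MG and at most 0.357 in EL. It stood in W2 at 7.00, 46.0 and 77.2. MSTRG.4894.6 stood at 4.25, 5.28 and 5.09 in MG and was listed at 0 in EL, and MSTRG.2295.1 at 5.08, 1.67 and 2.35 and at no more than 0.0532. Of these, MSTRG.4894.6 was present in LG, PL and W2 at 1.22 to 8.15, so EL was the one stage without it. MSTRG.2113.15, at 7.70 to 11.2 in MG, was listed at 0 in every counted sample of the other 4 stages.

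Placed among the other stages, the falls of EL were mostly also seen in PL. Of the 16 transcripts lower in EL, the PL mean was nearer EL than MG in 15, and the LG mean was nearer EL in 10 and nearer MG in 6. In W2 the mean was nearer EL in 9 and nearer MG in 7. Of the 8 transcripts higher in EL, PL was nearer EL in 4, LG in 3 and W2 in 1. Of the 16 transcripts lower in EL, 6 were below 0.5 in every counted sample outside MG. The MG and EL values that called the transcripts enter these counts, so they describe the transcripts and carry no test.

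Few changes passed the test at the level of genes. Transcript values were summed by reference gene or assembled locus, and 20911 sums with a mean of at least 1 over the 15 counted samples (12352 genes and 8559 loci) were tested in the same way. By limma, 3 sums (0.0143%) had an adjusted p below 0.05, all assembled loci, and none of the 16 called reference transcripts had a called gene sum. MSTRG.14767 was listed at 0 in MG and stood at 4.81, 5.84 and 4.86 in EL (adjusted p = 0.0012). MSTRG.3277 stood at 9.01, 7.89 and 4.28 in MG and was listed at 0 in EL (adjusted p = 0.0012). MSTRG.611 differed as its single transcript did (log2 difference 2.37, limma adjusted p = 0.0174). Sums with an unadjusted p below 0.05 numbered 356 higher in EL (1.7%) and 3383 lower (16.2%), and after median ratio scaling 878 (4.2%) and 1156 (5.53%). For 3 of the 12 reference transcripts that fell, the sum of the gene was lower in EL by at least 1 on the log2 scale, without passing the test.

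The number of called sums depended on the scaling and on the weights given to samples. After median ratio scaling 13 sums were higher and 6 lower in EL by limma, and with array quality weights 303 and 3586. Named genes among the 19 sums called after median ratio scaling, chosen after their values were seen, were CYP1A1, SLC34A2 and CD82 in the upward direction. SLC34A2, the sodium-phosphate cotransporter of secretory epithelia, stood at 116, 160 and 137 FPKM in MG and 226, 345 and 259 in EL, with a log2 difference of 0.99 ± 0.16 (limma adjusted p = 0.0706, and 0.0497 scaled). In the downward direction they were AXIN2, a brake on and target of WNT signalling, the potassium channel subunit KCNJ8 and the Fc receptor FCGR3A. AXIN2 stood at 4.52, 8.72 and 6.12 in MG and 0.283, 0.235 and 1.12 in EL, a log2 difference of -2.79 (limma adjusted p = 0.0528, and 0.0497 scaled).

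No milk protein gene passed the test by limma, although 6 of the 7 on the list had an unadjusted p below 0.05, all higher in EL. Of all sums 1.7% had such a p with EL higher. In CSN1S1, CSN1S2, CSN2, CSN3 and LALBA all EL samples lay above all MG samples, 5 of 7 genes, against 2.41% of all sums tested. The list had a median log2 difference of 2.41, and of 2.73 after median ratio scaling, when 6 of the 7, PAEP among them, lay above. With array quality weights on the same samples limma called 6 of the 7 higher in EL, beside 303 of all 20911 sums. The caseins lie together on chromosome 8 (CSN1S1 from 66888231, CSN3 to 67109112). The major casein CSN2 stood at 16977, 4862 and 7615 FPKM in MG and 33157, 48522 and 58718 in EL. This beta-casein was thus abundant at mid-gestation already and 4.77 times as high in EL by the means (log2 difference 2.41 ± 0.62, limma adjusted p = 0.199).

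The milk proteins differed in how far they were from their level of lactation. CSN1S1 stood at 5164, 4045 and 4921 in MG and 19178, 12867 and 10237 in EL, and CSN3, the casein that stabilises the micelle, at 6961, 2969 and 4041 and 9885, 26420 and 18886. CSN1S2, the alpha-S2 casein, spanned 23.2 to 681 in MG and 1442 to 29843 in EL. LALBA, the subunit that makes galactosyltransferase produce lactose, stood at 94.1, 6.60 and 66.7 in MG and at 151, 2501 and 1988 in EL. WAP, a whey protein of pig milk, stood at 10.1, 1.22 and 51.8 in MG and at 44.5, 632 and 621 in EL. In EL sample 3 CSN1S2, LALBA and WAP were far below samples 4 and 6, while CSN1S1 was highest in that sample. By the means of the stages CSN1S2 and LALBA were higher in PL, at 54706 and 13160, than in EL.

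PAEP, the beta-lactoglobulin gene, was the most abundant gene of the list at both stages and overlapped between them by a narrow margin. It stood at 133990, 100471 and 124973 in MG and 135972, 133914 and 148574 in EL, with a log2 difference of 0.23 ± 0.14 (limma adjusted p = 0.387). PAEP alone took 12.0% ± 1.74 of all FPKM in MG and 14.0% ± 0.795 in EL (SD, n = 3). The other milk proteins together took 2.95, 1.19 and 1.74% in the MG samples and 6.40, 12.1 and 10.4% in the EL samples. For 1 gene alone, the smallest two-sided p of an exact permutation test between 3 and 3 samples is 0.1.

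**Figure D3:**
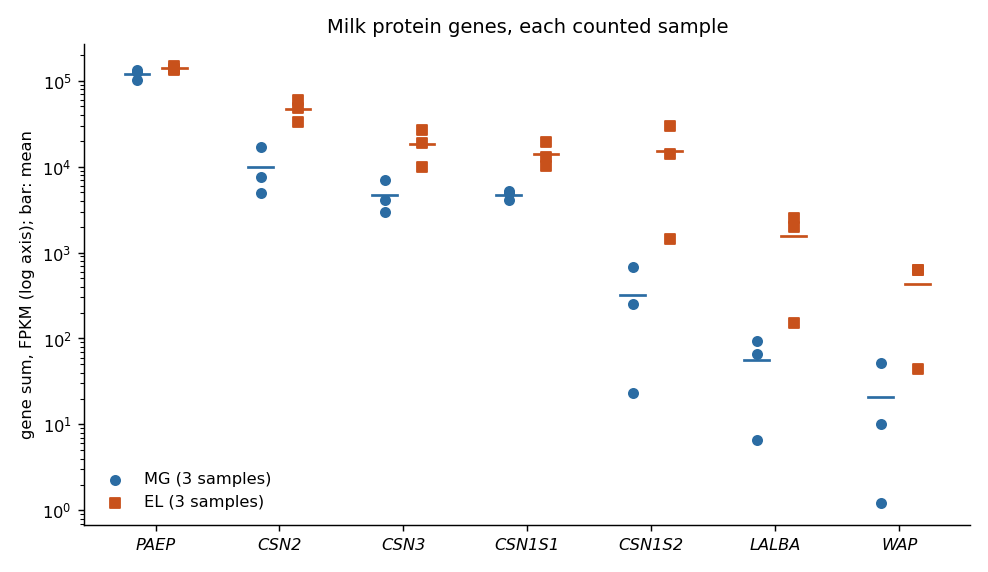
Gene sums of the 7 milk protein genes in FPKM on a log axis, with MG samples as circles, EL samples as squares and bars at the means of 3 samples. PAEP overlaps between the stages, and CSN1S2, LALBA and WAP spread over more than a factor of 10 within a stage.

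Beside the milk proteins, a few secreted defence proteins stood higher in EL. Of 15 tested genes of innate defence and the acute phase none passed the test by limma. An unadjusted p below 0.05 was reached by 4 with EL higher and 1 with EL lower, and array weights called 5 and 1. Of all 20911 sums 1.7% and 16.2% had such a p, and array weights called 303 and 3586. PGLYRP1, which binds bacterial peptidoglycan, stood at 1605, 541 and 747 in MG and 3246, 5108 and 4911 in EL (log2 difference 2.32 ± 0.50, limma adjusted p = 0.128). Haptoglobin HP stood at 433, 100.1 and 72.8 and at 658, 1252 and 743, and SAA3, the serum amyloid A of the mammary gland, at 837, 677 and 971 and at 1036, 2348 and 2444. LBP, which hands bacterial lipopolysaccharide to CD14, completed the 4 genes whose EL samples all lay above MG. The iron-binding lactoferrin LTF overlapped, at 417 to 786 in MG and 601 to 847 in EL. LYZ, LCN2 and CD14 had all EL samples below MG. The 4 above were 26.7% of the list, against 2.41% of all sums, and the 3 below 20.0%, against 31.1%. PIGR, which moves dimeric antibody across the epithelium, stood at 206, 124 and 158 in MG and 233, 453 and 337 in EL (limma adjusted p = 0.234), while JCHAIN of the antibody-making plasma cells overlapped at 636 to 2838.

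Genes of fat secretion mostly overlapped between the stages on the deposited values, and were more often separated after scaling. XDH, a purine enzyme that also anchors the lipid droplet to the apical membrane, stood at 436, 122 and 144 FPKM in MG and 810, 1765 and 1294 in EL (log2 difference 2.63 ± 0.51, limma adjusted p = 0.128). It was the only gene of the 8 on the milk fat globule list with an unadjusted p below 0.05. The droplet coat protein PLIN2 overlapped, at 1106 to 1366 and 1006 to 1321, and so did MFGE8. Of 13 tested genes of de novo fatty acid synthesis, ACLY, which makes cytosolic acetyl-CoA, alone had all EL samples above MG (2.41% of all sums did), at 70.0, 80.2 and 73.0 against 93.7, 88.2 and 91.7. The median of this list was 0.34 on the log2 scale, and 0.66 after scaling, when 6 of the 13 (46.2%) had all EL samples above. After scaling this also held for 7 of 21 genes of uptake and assembly and 3 of 8 of the milk fat globule, where 7.1% of all sums lay above. The fatty acid carrier FABP3, the highest gene of uptake and assembly, stood at 5733, 4116 and 4604 and at 5757, 6278 and 6986. Lipoprotein lipase LPL overlapped at 155 to 538 and 300.2 to 685.

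In the supply of lactose, calcium and amino acids, single genes stood out of lists with medians near 0. B4GALT1, the galactosyltransferase that pairs with LALBA, stood at 312, 224 and 255 in MG and 317, 475 and 430 in EL (log2 difference 0.62, limma adjusted p = 0.217). The list of glucose and lactose supply had a median of -0.24, and 0.09 after scaling. SLC34A2 was the one gene of 19 for calcium and mineral secretion with all EL samples above MG, and 5 (26.3%) had all below, where 2.41% of all sums lay above and 31.1% below. The amino acid transporter SLC6A14 ranged from 15.0 to 72.0 in MG and from 29.7 to 282 in EL, with overlap. Of 16 transporters SLC7A8, named after its values were seen, alone had all EL samples above MG, and SLC1A5 alone had all below.

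The endoplasmic reticulum, where milk proteins are folded and sent on, had a larger share of genes above MG on the deposited values than any other list except the milk proteins. Of 29 tested genes of folding and secretion 9 had all EL samples above all MG samples, and 15 after scaling, against 2.41% and 7.1% of all sums. None passed the test by limma, and 4 had an unadjusted p below 0.05 with EL higher, as did 1.7% of all sums. With array weights 3 were called higher, beside 303 of all 20911 sums. The 9 were the disulfide isomerases PDIA3, PDIA4 and PDIA6, the translocon subunits SEC61A1 and SEC61B, the associated SSR3, the signal peptidase subunits SPCS1 and SPCS2, and SEL1L of protein disposal. XBP1, the transcription factor of the secretory cell, overlapped at 1158, 593 and 511 in MG and 826, 1345 and 959 in EL. The list median was 0.18, 0.50 after scaling, 0.09 without MG sample 6 and 0.26 without MG sample 3.

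Of the prolactin and STAT5 pathway no gene passed by limma, and of 12 tested genes 1 had an unadjusted p below 0.05, lower in EL. Of all sums 16.2% had such a p with EL lower. The prolactin receptor PRLR has no reference transcript in the table and ERBB4 was below the filter, so neither was tested. ELF5, the factor that drives alveolar cells, overlapped widely at 64.2, 400.2 and 221 in MG and 136, 196 and 408 in EL. The list median was -0.25, and 0.04 after scaling. Of the 12 genes 2 (16.7%), SOCS3 and CAV1, had all EL samples below MG, against 31.1% of all sums. After scaling the same 2 lay below and 1 gene, STAT5A, above, against 12.8% and 7.1% of all sums. The caveolin CAV1, a brake on prolactin signalling, stood at 149, 176 and 182 in MG and 124, 102 and 105 in EL. The steroid and RANKL list had no gene of 9 with separated groups, and its highest, PGRMC1, stood at 344, 497 and 542 in MG and 735, 321 and 509 in EL. STAT5B at the level of the gene belongs to the same picture of overlap.

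Genes of cell division stood lower in EL. Of 39 tested genes 28 (71.8%) had all EL samples below all MG samples and none above, where 31.1% of all sums lay below. After median ratio scaling 17 (43.6%) lay below, against 12.8%. None passed the test by limma, and 22 had an unadjusted p below 0.05 with EL lower, as did 16.2% of all sums. With array weights 22 were called lower, beside 3586 of all 20911 sums. PCNA, the clamp of DNA replication, stood at 82.2, 122 and 106 FPKM in MG and 68.0, 56.8 and 67.7 in EL, and TYMS, which makes thymidylate, at 60.3 to 90.9 and at 29.2 to 53.9. The replicative helicase subunit MCM7 stood at 48.3, 67.0 and 59.7 and at 43.9, 30.2 and 37.5. The summed list was 607, 821 and 779 in MG and 527, 413 and 414 in EL, 1.63 times as high in MG by the means. The list median of -0.69 (-0.37 scaled) ran from -0.77 to -0.58 with any 1 sample left out. Of the list of D cyclins and cell cycle exit, CCND1 stood at 25.9, 55.0 and 31.1 and at 24.2, 10.9 and 16.9. The called transcripts of CKAP2 and CENPC belong to the same role, but the other transcripts of both genes overlapped between the stages.

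Connective tissue genes stood lower in EL, with a median below that of all sums. Of 23 tested collagens and matrix genes 16 (69.6%) had all EL samples below MG, and 12 (52.2%) after scaling, against 31.1% and 12.8% of all sums, with list medians of -0.85 and -0.53. None passed the test by limma, and 12 had an unadjusted p below 0.05 with EL lower, as did 16.2% of all sums. With array weights 13 were called lower, beside 3586 of all 20911 sums. Collagen III, COL3A1, stood at 795, 1104 and 966 in MG and 601, 440 and 471 in EL, and SPARC, which binds collagen, at 535, 617 and 697 and at 470, 318 and 317. COL4A1, of the basement membrane, stood at 326, 323 and 352 and at 243, 248 and 241, with little spread within EL. The gelatinase MMP2 stood at 57.7, 81.8 and 90.7 and at 51.7, 30.2 and 29.9. The WNT mediator CTNNB1 stood at 493, 659 and 689 in MG and 396, 235 and 262 in EL. Of the 25 genes tested for TGF-beta and WNT, 8 (32.0%) had all EL samples below, near the 31.1% of all sums, and 3 (12.0%) after scaling, near their 12.8%.

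Genes of antigen presentation also stood lower in EL. All 14 tested genes had a log2 difference below 0 (median -0.72, and -0.41 scaled), and 12 had all EL samples below MG (85.7%, against 31.1% of all sums). After scaling it was 8 (57.1%, against 12.8%). None passed by limma, and 11 had an unadjusted p below 0.05 with EL lower, as did 16.2% of all sums. With array weights 10 were called lower, beside 3586 of all 20911 sums. SLA-DQA1, a class II chain of the pig, came nearest, at 253, 308 and 303 in MG and 134, 130.1 and 155 in EL (log2 difference -1.04, limma adjusted p = 0.0863). The class II partner SLA-DRA stood at 321, 412 and 384 and at 226, 180.3 and 206, and CD74, the invariant chain, at 316, 433 and 413 and at 250.3, 203 and 244. B2M, the light chain of class I, stood at 434, 544 and 674 and at 356, 303 and 376. Macrophage genes stood beside them: 8 of 13 (61.5%) had all EL samples below MG and 7 (53.8%) after scaling, against the same shares of all sums, among them the complement gene C1QB at 119, 175 and 172 against 106, 53.2 and 81.0. The list sum of macrophages was 1093, 1191 and 1014 in MG and 542, 649 and 773 in EL. APOE, whose values are given below, is on this list and made up a large part of the MG sums. It was far lower in the EL sample with the lowest sum than in the others. Its log2 difference ran from -3.74 to -0.41 depending on the sample left out, so the fall of the list sum rests in part on this gene. The part of macrophages in the lower antigen presentation was not tested.

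Immediate early and stress genes were lower in EL in 16 of 19 (84.2%) by separation of the samples, and in 12 (63.2%) after scaling, against 31.1% and 12.8% of all sums, with medians of -0.79 and -0.46. None passed by limma, and 13 had an unadjusted p below 0.05, all lower in EL, as did 16.2% of all sums. With array weights 13 were called lower, beside 3586 of all 20911 sums. The chaperone HSPA8 stood at 747, 943 and 769 in MG and 561, 359 and 521 in EL, and the inducible HSP70.2 at 42.3, 60.0 and 44.7 and at 25.4, 21.2 and 27.1. JUND, of the AP-1 factors, stood at 43.5, 45.2 and 37.3 and at 27.0, 30.0 and 29.8. EGR1, named after its values were seen, stood at 26.2, 39.8 and 15.8 and at 6.99, 8.18 and 4.74.

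**Figure D4:**
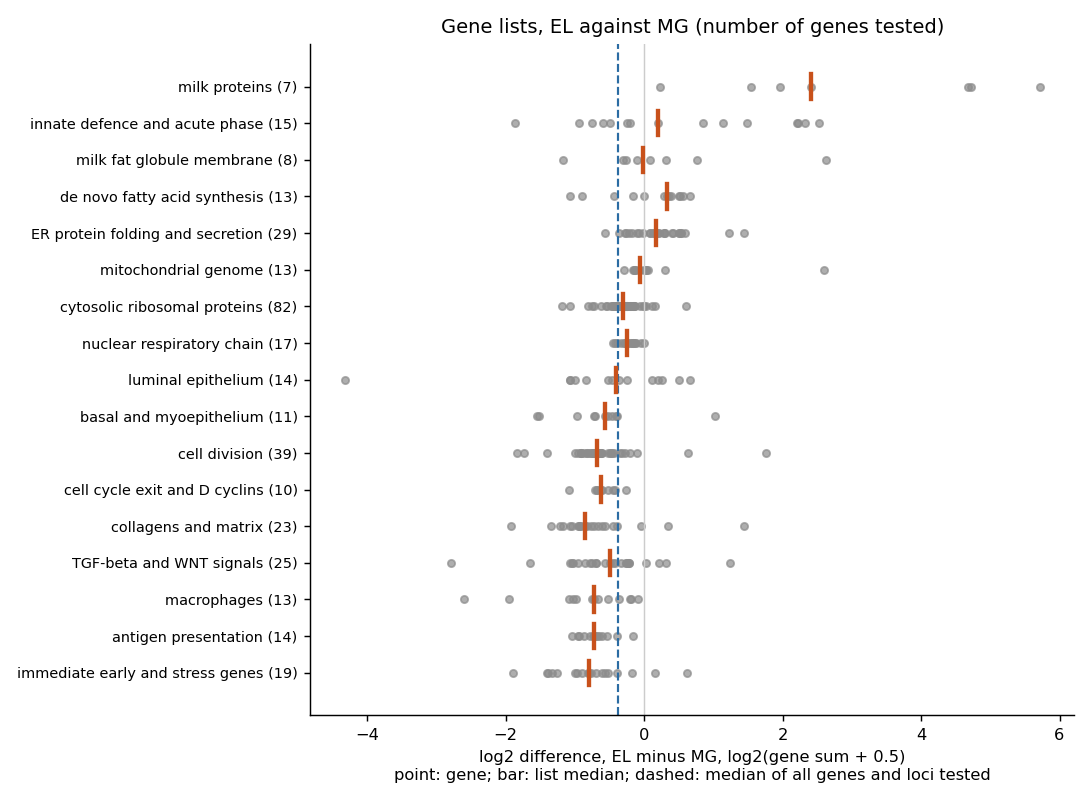
Log2 differences of gene sums, EL minus MG, for the tested genes of 17 lists (points), with list medians (bars) and the median of all 20911 sums (dashed line, -0.37). Milk proteins lie to the right of 0, and matrix, antigen presentation and immediate early genes lie mostly to the left of the dashed line.

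The lists of other functions held no gene called by limma, and their shares of genes with all EL samples below lay on both sides of the 31.1% of all sums. Antioxidant defence had 9 of 19 below and 7 lower with an unadjusted p below 0.05 (5 of 19 lay below after scaling), among them the superoxide dismutase SOD1 at 664, 750 and 889 in MG and 581, 366 and 625 in EL. Of all sums 16.2% had such a p with EL lower, and 12.8% lay below after scaling. Matrix proteases had 9 of 18, autophagy and lysosome 11 of 24, the BCL2 family 6 of 15, chemokines 5 of 13, interferon-stimulated genes 6 of 20, the PI3K, AKT and mTOR list 6 of 22 and the circadian clock 4 of 17. After scaling these lists had, in the same order, 6, 0, 1, 1, 2, 2 and 3 genes below. That was 33.3% for matrix proteases and 17.6% for the circadian clock, against 12.8% of all sums. Autophagy and lysosome had 4 (16.7%) above after scaling, against 7.1% of all sums. BCL2, the death-blocking founder of its family, was named after its values were seen. It stood at 7.16, 10.2 and 10.3 in MG and 2.25, 1.59 and 1.55 in EL (log2 difference -2.07, limma adjusted p = 0.0898).

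Most markers of mammary epithelium were present in every sample, with KRT7 as an exception. The luminal EPCAM stood at 624, 534 and 475 in MG and 555, 754 and 583 in EL, and KRT19 at 204 to 320 and 147 to 268. KRT8 stood at 227, 292 and 185 and at 141, 98.6 and 94.6, so the keratin was lower in EL while EPCAM overlapped. KRT7 ranged from 0.228 to 117 in MG and was listed at 0 in all EL samples, with stage means of 35.6 in LG, 60.2 in PL and 93.3 in W2. Of 14 luminal genes tested 5 (35.7%) had all EL samples below MG, near the 31.1% of all sums. After scaling 4 (28.6%) lay below and 1 (7.14%) above, against 12.8% and 7.1% of all sums. Of 11 basal and myoepithelial genes 8 (72.7%) lay below, and 2 (18.2%) after scaling, against 31.1% and 12.8% of all sums. The smooth muscle actin ACTA2, below on both scales, stood at 1232, 1308 and 1302 in MG and 921, 776 and 904 in EL. KRT14 and KRT17 have no reference transcript in the table used here.

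Markers of other tissues were mostly low or overlapped between the stages, with skin as an exception. The fat cell gene FABP4 overlapped at 441 to 730 and 655 to 709, and ADIPOQ and PLIN1 have no reference transcript in the table. LEP stood at no more than 0.622 in any of the 6 samples. The skin keratins KRT1 and KRT10 stood at 47.2 and 33.7 in MG sample 6, at 6.25 and 6.61 in sample 3 and at 0 and 4.27 in sample 1, against at most 0.0731 and 3.96 in EL. The skin list summed to 8.38, 19.7 and 97.6 in MG and 3.46 to 5.17 in EL, and its part in the other results was not tested. Skeletal muscle genes summed to at most 3.56. The haemoglobin HBB stood at 131 to 181 in MG and 84.9 to 282 in EL. Of 17 T and B cell genes 6 had all EL samples below MG, 35.3% and near the 31.1% of all sums. After scaling it was 5 (29.4%), against 12.8% of all sums. Of 7 neutrophil genes tested PGLYRP1 alone had a log2 difference above 0.

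The genes of protein synthesis and respiration marked the shift of the whole table. Of 82 ribosomal protein genes 39 (47.6%) had all EL samples below MG, against 31.1% of all sums. After median ratio scaling 1 (1.22%) lay below, against 12.8%, and 8 (9.76%) lay above, against 7.1%. The list medians were -0.30 and 0.02, so the direction turned with the scaling. Ribosomal proteins took 21.0% ± 1.01 of the total in MG and 17.0% ± 2.39 in EL (SD, n = 3). EEF1A1, which brings aminoacyl-tRNA to the ribosome, stood at 10747, 13794 and 10699.9 in MG and at 4469, 7654 and 9324 in EL. The 13 genes of the mitochondrial genome took 8.35% ± 0.214 and 8.12% ± 0.174, with none of them separated and a median of -0.06. After scaling the median was 0.26, and 10 of the 13 (76.9%, against 7.1% of all sums) had all EL samples above MG. Of 17 nuclear genes of the respiratory chain all had a log2 difference below 0 (median -0.25, and 0.07 scaled). The median of all sums was itself -0.37, and -0.08 scaled. Statements on these lists therefore hold on the deposited scale and not after scaling.

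**Figure D5:**
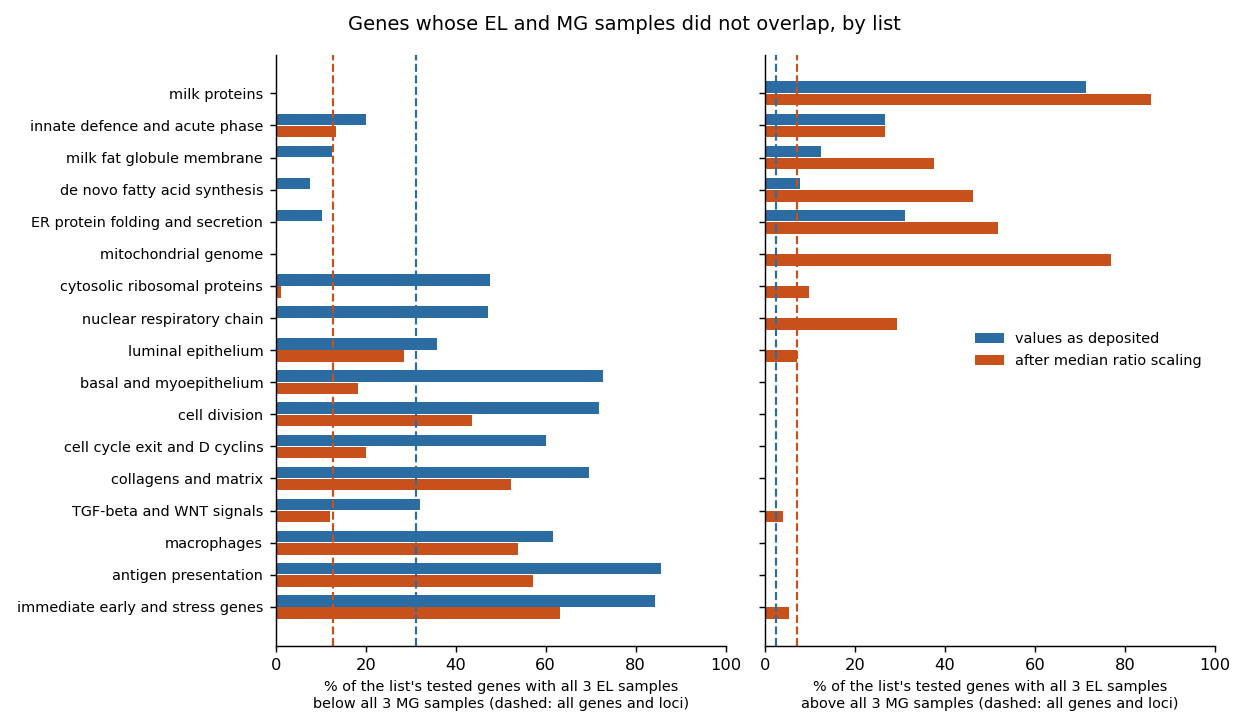
Share of the tested genes of each list, in percent, with all 3 EL samples below (left) or above (right) all 3 MG samples, on the deposited values (blue) and after median ratio scaling (orange), with dashed lines at the shares of all 20911 sums (31.1 and 12.8% below, 2.41 and 7.1% above). The bars change with the scaling, for ribosomal proteins from 47.6 to 1.22% below and for the mitochondrial genome from 0 to 76.9% above.

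Among reference genes with a mean of at least 10 and no overlap between EL and MG, the 10 highest and 10 lowest differences are given as values with no test. The 10 highest held CSN1S2, LALBA and XDH. They also held PIGZ, an enzyme of the membrane anchor GPI, at 5.07, 0.303 and 3.77 in MG and 17.5, 14.9 and 15.1 in EL. LOC110260739 and LOC110260741, protein-coding genes without a name that neighbour each other on chromosome 5 (60963037 to 60974232 and 61091785 to 61096759), stood at 23.6, 4.10 and 20.3 against 69.7, 334 and 250.0, and at 0.844, 0.214 and 2.67 against 4.32, 15.9 and 10.4. MIR769, a microRNA gene on chromosome 6 (52318329 to 52318408), stood at 4.28, 0.678 and 0.969 and at 15.8, 28.4 and 18.8. It lies beside PGLYRP1 (52318544 to 52322504), and whether reads of one are counted in the other was not tested. GCN1, MBTD1 and LOC100524679 completed the 10.

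Among the 10 lowest, several genes had their lowest EL value in sample 3. APOE, the lipid carrier of macrophages and fat, stood at 437, 452 and 363 in MG and at 2.82, 291 and 336 in EL. SNTB1, a syntrophin of the membrane skeleton, stood at 66.2, 68.6 and 55.4 in MG and at 0, 19.6 and 0.0730 in EL, and the prohibitin PHB2 at 120.4, 124 and 128 and at 0, 10.6 and 55.0. LMAN1, a cargo receptor of the secretory pathway, stood at 10.7, 22.1 and 24.8 and at 0, 0 and 6.47. A gene such as PHB2 is used by nearly every cell. Its reference transcripts were listed at 0 in EL sample 3 alone, and whether the gene was silent there was not tested. APEH and GIT1 were lowest in EL sample 3 in the same way, ARPC3 and LOC102167466, a V segment gene, in EL sample 6, and LOC102165318 in EL sample 4. KRT7 completed the 10.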

How the data were processed

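The members, gene lists and tests were chosen with earlier results of these data known. The authors used FastQC for read quality, Trimmomatic for trimming, HISAT2 for alignment to Sscrofa11.1 and StringTie for assembly and quantification, and dropped transcripts under 0.5 FPKM in every stage. They name RUVs, and whether the deposited values include it is not given in the sources used here. FPKM is the unit the authors give for the deposited values, which were used without further scaling. No sequencing batch is recorded.

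Both samples of any pair of a stage were left out where the pair differed by a median below 5%, among transcripts averaging 10 or more in the stage. The difference of their mean from that of the others was computed as a description. limma 3.58.1 in R 4.3.3 was fitted with a variance trend to log2(value + 0.5) of the 15 counted samples of 5 stages, without a low-value filter for transcripts, adjusted over all transcripts. Reference transcripts were summed by gene and assembled ones by locus, so reads of a gene under an MSTRG name are outside its sum. Symbols and positions are those of RefSeq for Sscrofa11.1. A few list members are not reported here. Gene lists had no test: their counts are to be read against those of all sums. Named are all called transcripts and sums, the milk proteins, genes from the 4 highest members of the lists, and the 10 highest and 10 lowest non-overlapping genes with a mean of at least 10. Other genes named were chosen after their values were seen. On simulated data of 61773 transcripts, 29 of 100 planted log2 changes of 2 and 68 of 100 of 4 were called, with 6 false calls. For 20911 sums it was 72 and 92, with 15 false calls. The simulated log2 values were normal and had no floor, and changes were planted only in features of higher mean. Calls there used the adjusted p alone, without the log2 threshold. Most called transcripts were near the floor in MG or EL, so these rates do not describe them. Alternatives changed the added value, scaling, samples, variance model, filter and replicate block. Analyses used Python 3.11.15, pandas 2.3.3 and numpy 2.4.6.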

Additional observations from a re-analysis of the deposited data

How the results depend on the processing

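None of the 24 DETs reversed under any alternative. The DETs numbered 15 (8 lower in EL) with an added value of 1, 14 (5 higher, 9 lower) with a mean of at least 1, and 12 (2 and 10) with EL and MG fitted alone, of which 1 was among the 24. They were 602 (212 and 390) with the mean of the left-out samples as 1 further sample, and 2582 (951 and 1631) with all 6 samples per stage. The DETs lower in EL numbered 10 after quantile normalization and 9 after median ratio scaling. Leaving out 1 sample gave 53 to 84 DETs (10 to 39 higher, 19 to 72 lower). The called sums numbered 6 (3 lower) with an added value of 0.1, 5 (3 lower) with 1, 23 (13 and 10) after quantile normalization, 19 (13 and 6) after median ratio scaling, 20 (7 and 13) with EL and MG alone, 8 (4 and 4) without a variance trend, 7 (4 lower) without the filter and 3889 (303 and 3586) with array weights. With the left-out samples they were 4011 (361 and 3650) as a mean and 9699 (1057 and 8642) in full, and without 1 sample 6 to 19 (3 to 7 higher, 3 to 15 lower). The causes were not tested.

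List medians after quantile normalization and median ratio scaling were -0.34 and -0.37 for cell division, -0.53 and -0.53 for collagens and matrix, -0.38 and -0.41 for antigen presentation, 0.46 and 0.50 for folding and secretion, and -0.48 and -0.46 for immediate early genes. With 1 sample left out, folding and secretion ran from 0.092 to 0.26 and immediate early genes from -0.89 to -0.64. The replicate block, with the shared numbers 3 and 6, left 5 DETs (1 higher, 4 lower, 3 among the 24) and 1 sum (0 higher). Each sow gave 1 sample, so the numbers do not pair the samples. Deviations from the stage means correlated at 0.12 and 0.14 for the same numbers and at -0.08 to 0.15 for others. Depth per transcript is unknown, so low values are the least precise.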
